A study of Homo sapiens with 4 samples.

Results

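The genes described here make fatty acids, join them into triglyceride and store or release that triglyceride at lipid droplets. They are a list of 40 symbols, of which 39 were matched by name to 1 of the 62893 Ensembl identifiers in each deposited table. ACACA, the cytosolic acetyl-CoA carboxylase, was not matched and was not analysed here. Of the 39, 31 had at least 20 reads over the 4 tables, 5 had between 1 and 15 reads, and 3 had none.

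Total RNA of Hep-G2, an established human liver cancer line, was sequenced at passage 21. The study compared cells carrying an shRNA against FTO (labelled TRCN0000246247), called shFTO here, with cells carrying a scramble control shRNA (labelled SHC002). FTO encodes a demethylase of N6-methyladenosine in RNA. Each group has 2 tables, called run 1 and run 2, and the labels name a single shRNA per group and do not say whether the runs came from separate cultures or clones.

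The tables hold 20047409 to 20706611 gene-assigned reads. Runs of a group differed by no more than sampling noise (chi-square per degree of freedom 1.019 for scramble, p = 0.0648, and 1.013 for shFTO, p = 0.142), whereas tables of different groups gave 118.5 to 120.4. The runs of a group were therefore pooled and counted as 1 sample, so every ratio below sets 1 sample against another, without replicates to check it. Levels are CPM, a gene's reads per 1000000 reads of the table after TMM scaling, which aligns the tables on the bulk of their genes. Each fold is a ratio of pooled CPM with an exact 95% Clopper-Pearson interval on the read split, which covers counting error only. FTO itself was at 31.4 and 28.5 CPM in the scramble runs and at 5.42 and 5.84 CPM in the shFTO runs, 5.32-fold lower (4.63 to 6.13).

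The 10 hepatocyte markers checked all had reads, with a summed level of 35095 to 35107 CPM in scramble and 16442 to 16522 CPM in shFTO. At least 1.5-fold lower were 7 of them and higher was 1, against 14.3% and 12.7% of all genes with at least 20 reads. They ranged from TTR, 19.8-fold lower, over HNF4A, 1.32-fold lower, to CPS1, 1.535-fold higher. Of 7 adipocyte markers 4 had any read, with LEP, FABP4 and LPL at 0. Their summed level was 6.53 to 7.20 CPM in scramble and 3.60 to 3.93 CPM in shFTO. Nearly all of it is the single gene CFD (6.70 CPM in pooled scramble, 3.60 CPM in pooled shFTO). Fibroblast markers were detected for 3 of 6 genes (23.1 to 23.7 CPM in scramble, 6.45 to 7.07 CPM in shFTO), with COL3A1, DCN and LUM at 0. That sum is mostly PDGFRB (23.3 CPM in pooled scramble, 3.62 CPM in pooled shFTO), while COL1A1 went the other way, with 2 and 3 reads in the scramble runs against 61 and 74 in the shFTO runs. Endothelial markers, 3 of 5 with any read and PECAM1 and KDR at 0, summed to 1.06 to 1.35 CPM and 2.14 to 2.20 CPM. Leukocyte markers, 4 of 5 with any read and PTPRC at 0, summed to 1.04 to 1.69 CPM and 0.821 to 0.888 CPM. The endothelial sum is mostly TIE1 and the leukocyte sum mostly CD14. Markers listed at 0 are not read as absent, since whether a 0 reflects the transcript or the counting was not tested. The part of these shifts in the lipid gene values was not tested. In bulk RNA, fewer cells of a kind and less RNA per cell cannot be told apart.

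In liver cells, citrate exported from mitochondria is cleaved to acetyl-CoA, carboxylated to malonyl-CoA and built into palmitate, which elongases and desaturases then modify. Acyl chains are added stepwise to a glycerol backbone to give phosphatidic acid, diacylglycerol and finally triglyceride, which is held in droplets coated by perilipins and released again by lipases. The transcription factors encoded by SREBF1 and MLXIPL are known activators of many genes of this route.

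Promoter sequence is shown for 4 members, chosen after their values were seen from those that differed by more than 1.5-fold, because the letters that known lipid and oxygen regulators read can be looked for there. These are the 250 bases before the annotated start on the gene's strand, 5′ to 3′, from RefSeq on GRCh38.p14, a newer build than the authors' hg19. Capitals mark a match on either strand to CACGTG (the E-box, read by USF and related factors), ACGTG (the hypoxia response core, which lies within every E-box), CCAAT (the NF-Y box) or TCACNCCAC (the sterol regulatory element core). PLIN2, ELOVL6 and LPIN2 were lower in shFTO and GPAM was higher. Each lower gene shown holds a match and GPAM holds none, but among members not shown this is not so. ELOVL2, lower, holds none, and AGPAT3 and PLIN4, higher, hold matches. The genes shown are thus no guide to how matches go with direction. The windows lie at chr9:19127493-19127742 (PLIN2, minus strand), chr4:110198616-110198865 (ELOVL6, minus strand), chr18:3013145-3013394 (LPIN2, minus strand, the window of its annotated starts with most matches) and chr10:112183766-112184015 (GPAM, minus strand).
PLIN2: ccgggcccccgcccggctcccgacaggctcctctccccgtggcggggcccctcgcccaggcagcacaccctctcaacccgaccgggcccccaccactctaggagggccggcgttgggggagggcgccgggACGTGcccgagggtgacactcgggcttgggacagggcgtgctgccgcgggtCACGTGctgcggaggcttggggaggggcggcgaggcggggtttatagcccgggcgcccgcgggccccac
ELOVL6: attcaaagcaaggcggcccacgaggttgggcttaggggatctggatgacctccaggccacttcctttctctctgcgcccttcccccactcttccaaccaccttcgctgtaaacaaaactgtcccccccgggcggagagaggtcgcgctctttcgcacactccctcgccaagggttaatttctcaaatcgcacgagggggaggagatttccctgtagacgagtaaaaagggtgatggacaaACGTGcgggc
LPIN2: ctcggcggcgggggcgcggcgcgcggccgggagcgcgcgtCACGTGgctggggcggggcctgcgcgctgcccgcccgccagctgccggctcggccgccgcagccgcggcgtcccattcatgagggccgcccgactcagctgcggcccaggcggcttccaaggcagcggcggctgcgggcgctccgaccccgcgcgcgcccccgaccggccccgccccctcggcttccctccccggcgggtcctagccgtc
GPAM: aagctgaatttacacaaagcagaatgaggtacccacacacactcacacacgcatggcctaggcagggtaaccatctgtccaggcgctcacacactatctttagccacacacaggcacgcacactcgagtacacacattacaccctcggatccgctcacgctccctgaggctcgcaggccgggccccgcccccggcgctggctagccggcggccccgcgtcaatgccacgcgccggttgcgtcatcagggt

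The PLIN2 window holds an E-box 69 to 64 bases before the start and a further hypoxia core 120 to 116 bases before it. In the ELOVL6 window the only match is a hypoxia core close to the start, in the LPIN2 window it is an E-box, and the GPAM window holds no match to these letters. RefSeq windows were found for 33 of the 39 matched members, 48 windows in all, with none for DGAT1, DGAT2, FASN, LPIN3, MGLL and PNPLA3. An E-box stood in 4 of the 48 (8.33%) and in 6.34% of 35116 windows of the same length, and a hypoxia core in 7 (14.6%) against 18.5%. The CCAAT box stood in 20 (41.7%) against 32% and the sterol element core in 2 (4.17%, CIDEC and PNPLA2) against 0.883%. Among the other members at least 1.5-fold different, AGPAT3 and PLIN4, both higher, held CCAAT boxes. No match stood in the windows of ELOVL2, which was lower, or SREBF1, which was higher. Hypoxia cores also stood in ELOVL5 and ACACB, which were lower by less than 1.5-fold, and in ELOVL1, which was higher. Whether a match goes with direction was not tested. A match is a string of letters and shows no binding.

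Over the 31 members with enough reads, glycerolipid assembly genes and droplet protein genes each went in both directions. Of assembly, GPAM, DGAT2 and AGPAT3 were higher in shFTO and LPIN2 was lower. Of the droplet proteins, PLIN4 was higher and PLIN2 and CIDEC were lower. ELOVL2 and ELOVL6 were lower and SREBF1 was higher. FASN (1.43-fold higher), ELOVL5 (1.48-fold lower) and PNPLA2 (1.49-fold lower) fell short of 1.5-fold. At least 1.5-fold higher were 5 members (GPAM, DGAT2, AGPAT3, SREBF1 and PLIN4), against 12.7% of the 14925 genes with as many reads. At least 1.5-fold lower were 5 (ELOVL2, PLIN2, ELOVL6, LPIN2 and CIDEC), against 14.3% of all genes. Both directions together made 32.3% of the members and 27% of all genes. At least 2-fold, 2 were higher (all genes 6.04%) and 3 lower (all genes 6.67%). These shares lie near the background, and the median log2 ratio of the members was -0.04 against 0.01 over all genes. Counts by role below cover few genes and are to be read beside the shares of all genes. The runs of the groups did not overlap in 29 of the 31 (93.5%, against 79.3% of all genes), the exceptions being ELOVL7 and PLIN5.

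By edgeR's quasi-likelihood test on the 4 tables, with Benjamini-Hochberg adjustment over 13767 genes, 11 of the 31 were called higher (background 33.2%), 15 lower (background 33.4%) and 5 were not called. Its spread comes from runs that differ only by sampling, so these calls compare the libraries and not the conditions. Scaling by plain library size moves all log2 ratios up by 0.17, so that a ratio or median just below 0 turns positive, and it turns the split of member calls to 15 higher and 10 lower, and that of the 1.5-fold counts to 6 and 3. Over all genes it turns 4576 higher and 4594 lower into 6711 and 3041. With that scaling the small differences of SCD, ELOVL7, LPIN3, DGAT1 and PLIN5 change sign, FASN passes 1.5-fold, and LPIN2 and CIDEC no longer do.

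**Figure D1:**
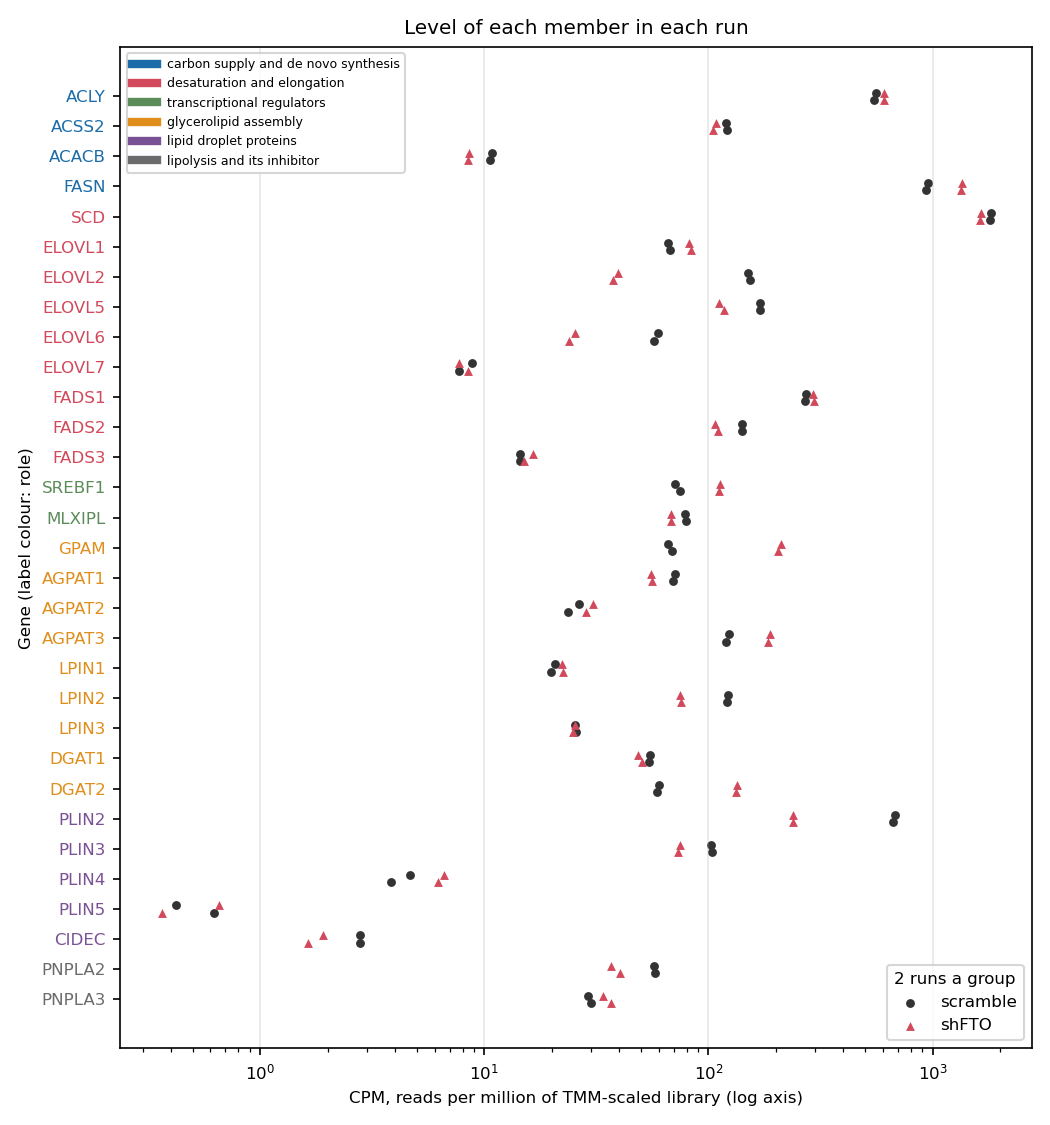
Level of the 31 members with at least 20 reads in each of the 4 runs, in CPM on a log axis, with scramble as circles, shFTO as triangles and the label colour giving the role. SCD, FASN, PLIN2 and ACLY have the most reads, and the runs of a group lie close together except for PLIN5.

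**Figure D2:**
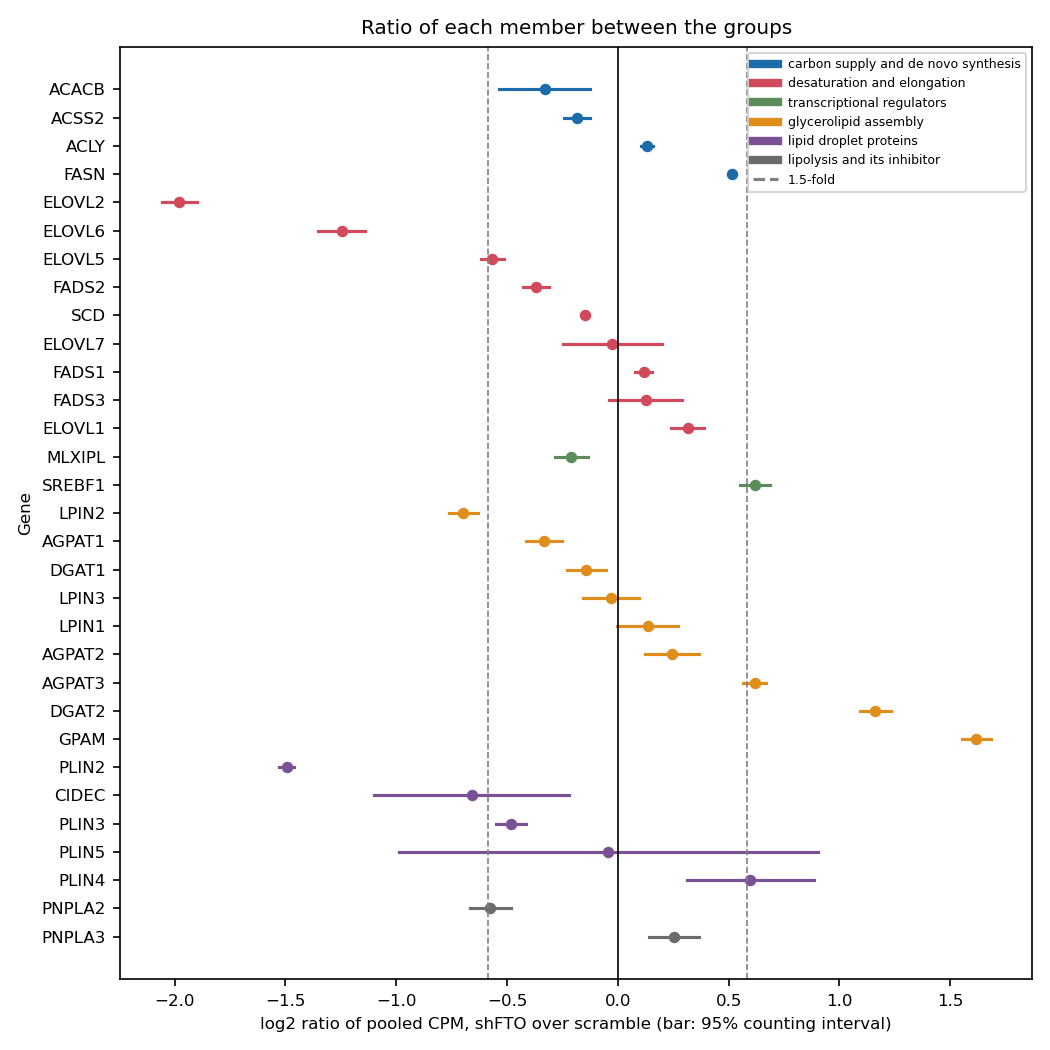
Log2 ratio of pooled CPM, shFTO over scramble, for the same 31 members, with bars for the 95% counting interval and dashed lines at 1.5-fold. GPAM and DGAT2 stand furthest to the right and ELOVL2, PLIN2 and ELOVL6 furthest to the left.

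Of the genes of carbon supply and chain synthesis, FASN, the synthase that builds palmitate, differed most. FASN stood at 950.4 and 929 CPM in the scramble runs and at 1351 and 1337 CPM in the shFTO runs. It was 1.43-fold higher (1.41 to 1.45), short of 1.5-fold, and its share of all member reads went from 16.0% and 15.8% to 23.5% and 23.3%. ACLY, which cleaves citrate to acetyl-CoA, was at 559 and 550 CPM against 605 and 609 CPM, only 1.10-fold higher (1.07 to 1.11). Per kilobase of principal transcript ACLY was above FASN in pooled scramble (128 against 109.7 CPM per kb) and below it in pooled shFTO (139.9 against 157 CPM per kb). This order rests on annotated transcript lengths, which were not checked against the transcripts expressed here.

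ACSS2 and ACACB were lower by less than 1.5-fold. ACSS2, which makes acetyl-CoA from acetate, was at 120 and 122 CPM against 108 and 105 CPM, 1.14-fold lower (1.09 to 1.18). ACACB, the carboxylase of the mitochondrial surface whose malonyl-CoA restrains fatty acid oxidation, was at 10.8 and 10.6 CPM against 8.55 and 8.43 CPM, 1.26-fold lower (1.09 to 1.45). ME1, a cytosolic source of NADPH, was listed at 0 reads in all 4 tables. With 3 reads as the floor over a group's pooled runs, a count of 0 allows up to 0.0785 CPM in scramble and 0.0692 CPM in shFTO. Its annotated exons share no bases with another gene, and whether the 0 reflects the transcript or the counting was not tested, so it is not read as absence. G0S2 and INSIG1, also listed at 0, are likewise not read as absent. Of the 4 measured genes of this role none reached 1.5-fold, and their median log2 ratio was -0.03.

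Among desaturases the levels differed little. SCD, which places the first double bond in saturated acyl chains, had the most reads of any member, with 1812 and 1810 CPM in scramble and 1639 and 1633 CPM in shFTO. That is 1.11-fold lower (1.09 to 1.12), or a log2 ratio of 0.02 under plain library size, where the sign turns. FASN reads per SCD read, which do not depend on the scaling between tables, were 0.525 and 0.513 in scramble and 0.825 and 0.818 in shFTO. The paralog SCD5 had 3 and 1 reads against 1 and 6, too few for a fold.

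The front-end desaturases of polyunsaturated fatty acid synthesis differed by a small amount in opposite directions. FADS2, which starts that route, was at 140.4 and 141 CPM against 107 and 111 CPM, 1.29-fold lower (1.24 to 1.34). FADS1, which acts later in it, was at 271 and 269 CPM against 292 and 294 CPM, 1.08-fold higher (1.06 to 1.11). FADS3 was 1.09-fold higher with an interval from 0.973 to 1.22 that includes no difference. FADS1 and FADS2 lie side by side and share 5.57% and 4.89% of their annotated exon bases with other genes, each other included, where unstranded reads cannot be assigned.

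Elongases differed most within this role, and not in a common direction. ELOVL2, which lengthens long polyunsaturated chains, was at 150.1 and 154 CPM in the scramble runs and at 39.6 and 37.4 CPM in the shFTO runs. It was 3.94-fold lower (3.73 to 4.16), the largest difference of any member. ELOVL6, which extends palmitate to stearate, was at 59.4 and 57.3 CPM against 25.3 and 23.9 CPM, 2.37-fold lower (2.20 to 2.55). The runs of the groups did not overlap for either gene, as for 79.3% of all genes.

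ELOVL5, which acts on shorter polyunsaturated chains, was at 169 and 170 CPM against 112 and 117 CPM, 1.48-fold lower (1.43 to 1.54), and past 1.5-fold without shFTO run 2 (log2 ratio -0.61). ELOVL1, an elongase of saturated very long chains, went the other way, at 66.0 and 67.4 CPM against 81.9 and 83.9 CPM, 1.24-fold higher (1.18 to 1.31). ELOVL7 overlapped between the groups, at 8.79 and 7.72 CPM against 7.71 and 8.48 CPM. Of the 9 measured desaturases and elongases, 2 were at least 1.5-fold lower and none higher, with a median log2 ratio of -0.15, or 0.02 under plain library size.

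Levels per kilobase of principal transcript, here and below, compare genes only as far as the annotated length holds in these cells, which was not tested. On that scale the summed level of the 5 elongases was 149 and 151 CPM per kb in scramble and 106 and 108 CPM per kb in shFTO. ELOVL2 gave 25.1% and 25.4% of that sum in scramble but 9.38% and 8.64% in shFTO. ELOVL1 went from 27.2% and 27.5% to 47.7% in each run, and became the most abundant of the 5 in place of ELOVL5, which held 40.02% and 39.9% and then 37.4% and 38.3%. FADS1 reads per ELOVL2 read were 1.81 and 1.75 in scramble and 7.36 and 7.86 in shFTO.

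The transcriptional regulators split. SREBF1, which encodes the sterol regulatory element binding protein of fatty acid synthesis, was at 70.7 and 75.0 CPM against 112 CPM in each shFTO run, 1.53-fold higher (1.46 to 1.61). Without scramble run 1 it fell just short of 1.5-fold (log2 ratio 0.57). Gene-level counts cannot tell its transcript variants apart, and 6.92% of its exon bases are shared with RAI1 on the other strand. MLXIPL, which encodes the carbohydrate response factor ChREBP, was at 78.6 and 79.4 CPM against 68.2 and 68.3 CPM, 1.16-fold lower (1.10 to 1.22). SREBF1 reads per MLXIPL read were 0.900 and 0.945 in scramble and 1.64 and 1.63 in shFTO. THRSP, a thyroid hormone responsive gene of lipogenic tissue, had 5 reads in all.

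Glycerolipid assembly held the 2 members that were at least 2-fold higher. GPAM, the mitochondrial acyltransferase that adds the first acyl chain to glycerol phosphate, was at 66.1 and 68.7 CPM in the scramble runs and at 210.1 and 204 CPM in the shFTO runs. It was 3.07-fold higher (2.94 to 3.21). DGAT2, which adds the last acyl chain of triglyceride, was at 60.4 and 59.2 CPM against 134 and 133 CPM, 2.24-fold higher (2.13 to 2.35). For both genes the groups did not overlap, as for 79.3% of all genes. Runs of a group differ by no more than sampling noise, so their agreement adds no replication.

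The unrelated enzyme of the same last step, DGAT1, was at 54.9 and 54.4 CPM against 48.6 and 50.4 CPM, 1.10-fold lower (1.04 to 1.17), with a log2 ratio of 0.03 under plain library size. DGAT2 reads per DGAT1 read were 1.10 and 1.09 in scramble and 2.76 and 2.65 in shFTO. Per kilobase, DGAT2 made up 62.5% and 62.2% of the summed level of the pair in scramble and 80.7% and 80.01% in shFTO, and that sum went from 39.4 and 38.8 to 67.9 CPM per kb in each run.

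The AGPAT enzymes, which add the second acyl chain, differed among themselves. AGPAT3 was at 123 and 120 CPM against 188 and 185 CPM, 1.53-fold higher (1.48 to 1.59), and AGPAT2, whose loss causes a human lipodystrophy, was 1.18-fold higher (1.09 to 1.29). AGPAT1 was at 71.1 and 69.3 CPM against 55.2 and 56.2 CPM, 1.26-fold lower (1.19 to 1.33), with 30.2% of its exon bases shared with neighbours. Per kilobase AGPAT1 was the most abundant of the 3 in scramble, with 42.3% and 43.3% of their sum, and AGPAT3 was in shFTO, with 43.5% and 43.7%.

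Lipins turn phosphatidic acid into diacylglycerol. LPIN2, the most abundant of them per kilobase in every run, was at 123 and 121 CPM against 75.0 and 75.3 CPM, 1.62-fold lower (1.55 to 1.70). LPIN1 (1.10-fold higher, 0.998 to 1.21) and LPIN3 (1.02-fold lower, 0.936 to 1.12) had intervals that include no difference. The summed lipin level went from 29.7 and 29.3 to 22.3 and 22.2 CPM per kb. Over the 9 assembly genes, all measured, 3 were at least 1.5-fold higher and 1 lower. Their median log2 ratio was 0.13, or 0.30 under plain library size.

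**Figure D3:**
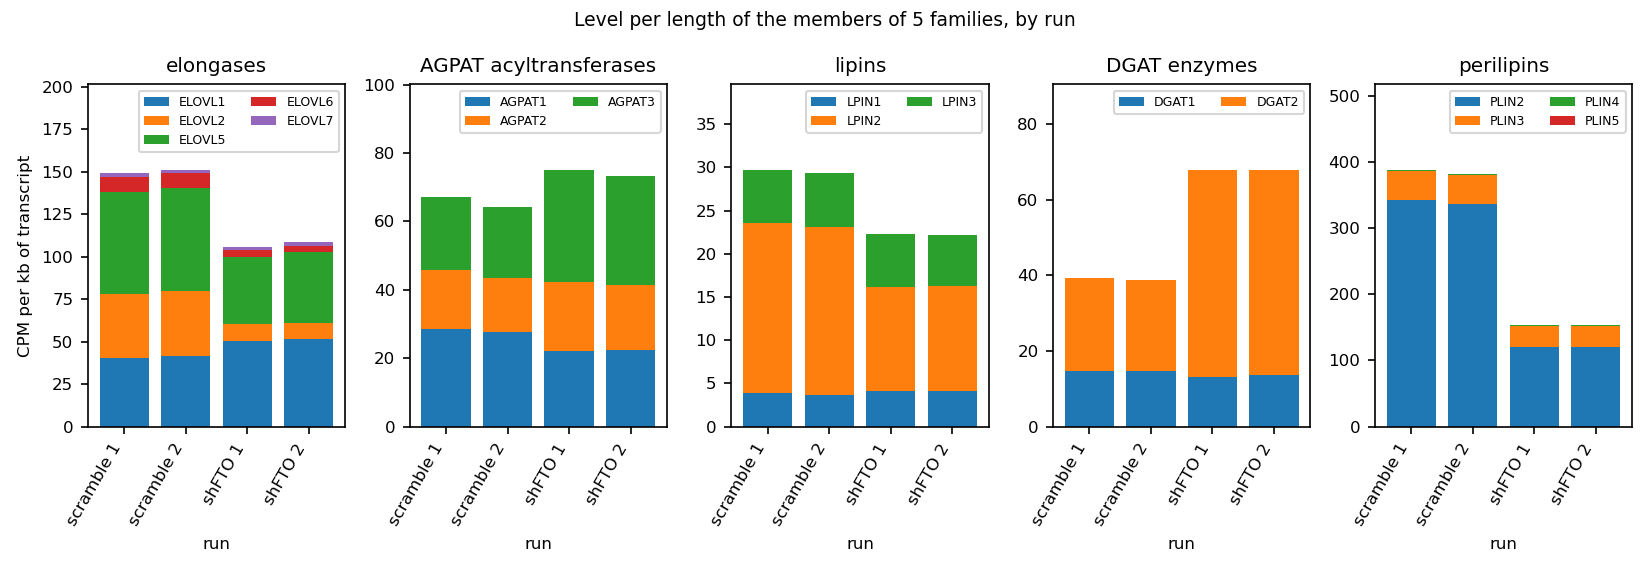
Level per kilobase of principal transcript (CPM per kb, bars from 0) of the members of 5 families in each run, stacked by gene. The sums of the elongases, lipins and perilipins are lower in both shFTO runs and those of the AGPAT and DGAT enzymes higher, and ELOVL2 and PLIN2 shrink most.

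At the droplet surface PLIN2, the main perilipin of liver cells, was at 676 and 662 CPM in the scramble runs and at 237 and 238 CPM in the shFTO runs. It was 2.82-fold lower (2.75 to 2.88), and its share of member reads went from 11.4% and 11.3% to 4.12% and 4.14%. PLIN3, a coat protein that exchanges with the cytosol, was at 102 and 104 CPM against 74.5 and 73.0 CPM, 1.40-fold lower (1.33 to 1.46). No run of either group overlapped the other group for these genes, as for 79.3% of all genes. Of the PLIN3 exon bases, 17.8% are shared with a gene on the other strand.

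The remaining coat genes were low. PLIN4 was at 4.66 and 3.83 CPM against 6.64 and 6.20 CPM, 1.51-fold higher (1.24 to 1.85), a value that dropped under 1.5-fold without scramble run 2 (log2 ratio 0.46) or shFTO run 1 (0.55). PLIN5, which ties droplets to mitochondria, had 8 and 12 reads against 14 and 8, and its groups overlapped. Per kilobase PLIN2 gave 88.5% and 88.1% of the summed perilipin level in scramble and 78.3% and 78.8% in shFTO, and the sum was 387.5 and 381.2 CPM per kb in scramble and 153.5 and 152.9 CPM per kb in shFTO.

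CIDEC, which moves lipid between droplets so that they grow, was at 2.81 and 2.80 CPM against 1.92 and 1.64 CPM, 1.58-fold lower (1.17 to 2.14) from 184 reads in all, and its log2 ratio was -0.55 without shFTO run 2. CIDEB was listed at 0 in every table, but all of its annotated exon bases are shared with exons of LTB4R2 and NOP9, so its level cannot be read here. HSD17B13, a droplet enzyme of hepatocytes, had 5 and 5 reads against 2 and 3. Of the 5 measured droplet genes 2 were at least 1.5-fold lower and 1 higher, with a median log2 ratio of -0.48.

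Lipases were measured for PNPLA2 and PNPLA3 only. PNPLA2, which encodes the adipose triglyceride lipase, was at 57.1 and 57.5 CPM against 36.7 and 40.1 CPM, 1.49-fold lower (1.40 to 1.59). It passed 1.5-fold without shFTO run 2 (log2 ratio -0.65) or scramble run 1 (-0.59). PNPLA3, a droplet protein known for its link to fatty liver, was at 29.1 and 30.0 CPM against 33.8 and 36.7 CPM, 1.19-fold higher (1.10 to 1.29). G0S2, an inhibitor of PNPLA2, was listed at 0 in all tables. LIPE, the hormone-sensitive lipase, had 1 read, and MGLL, which releases the last acyl chain, had 3 and 2 reads against 4 and 6.

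The assembly transcripts GPAM and DGAT2 and the main coat transcript PLIN2, all among the members that differed most, went in opposite directions. Of the other assembly genes, AGPAT3 and AGPAT2 were higher and LPIN2, AGPAT1 and DGAT1 lower. The sign of DGAT1 turns under plain library size. GPAM reads per PLIN2 read were 0.0978 and 0.104 in scramble and 0.886 and 0.859 in shFTO, and DGAT2 reads per PLIN2 read 0.0893 and 0.0894 against 0.566 and 0.561. As a share of all reads the carbon supply and synthesis genes took 0.154% and 0.152% in scramble and 0.219% and 0.218% in shFTO, and the assembly genes 0.0538% and 0.0530% against 0.0836% and 0.0826%. Droplet proteins took 0.0741% and 0.0729% against 0.0340% and 0.0338%. Desaturation and elongation genes took 0.2536% and 0.2538% against 0.2455% and 0.2463%. Lipolysis genes took 0.00814% and 0.00826% against 0.00748% and 0.00816%, and the regulators 0.0141% and 0.0146% against 0.0191% in each run. FASN alone took 0.0896% and 0.0876% against 0.143% and 0.142%. All 39 together took 0.558% and 0.554% against 0.609% and 0.608%. These shares are of unscaled reads, and plain library size moves log2 ratios up by 0.17 from TMM. The direction of the small difference for all 39 depends on that choice.

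Other genes of the same routes came from 5 lists with 86 genes, all matched, of which 78 had at least 20 reads. At least 1.5-fold higher were 7 and lower 18, with a median log2 ratio of -0.08, or 0.09 under plain library size. Both directions together made 32.1% of the 78, near the 27% of all genes (12.7% higher and 14.3% lower), and the counts of single lists below are to be read beside those shares. Among 13 acyl-CoA synthetases, which activate fatty acids for every route described here, 1 was at least 1.5-fold higher and 6 lower (median -0.26). ACSL4 was 2.73-fold lower (2.67 to 2.78), ACSL6 2.35-fold (1.80 to 3.09), ACSL3 2.22-fold (2.17 to 2.28) and ACSL5 2.04-fold (1.93 to 2.15), whereas ACSL1 was 2.19-fold higher (2.07 to 2.32).

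Of 17 measured regulators of SREBP, LXR and ChREBP activity, 1 was at least 1.5-fold higher and 2 lower (median 0.05). INSIG2, which holds SREBP precursors in the endoplasmic reticulum, was at 304 CPM in pooled scramble and 122 CPM in pooled shFTO, 2.50-fold lower (2.42 to 2.58). The related INSIG1 was listed at 0 in all tables. PPARG, a nuclear receptor of fat storage, was at 39.9 against 15.6 CPM, 2.56-fold lower (2.34 to 2.81).

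Among 13 other fatty acid synthesis enzymes 2 were at least 1.5-fold higher and none lower (median -0.04), and ACSS1, the mitochondrial acetate enzyme, was 2.78-fold higher (2.65 to 2.91). Of 12 other glycerolipid enzymes 1 was at least 1.5-fold higher and 2 lower (median 0.17), with the phosphatidate phosphatase PLPP1 2.06-fold higher (1.83 to 2.31) and the monoacylglycerol acyltransferase MOGAT3 2.20-fold lower (1.97 to 2.47).

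Other droplet, lipolysis and lipid export genes were lower by at least 1.5-fold in 8 of 23 cases and higher in 2 (median -0.24). MTTP, which loads lipid onto nascent lipoproteins, was at 67.0 against 7.02 CPM, 9.55-fold lower (8.48 to 10.8). PNPLA8, a phospholipase, was 2.69-fold lower (2.35 to 3.09), and CES1, a liver carboxylesterase that acts on stored triglyceride, was 3.66-fold higher (3.55 to 3.78), at 123 against 451 CPM. FITM1, with 32 reads in all, was 4.05-fold lower (1.70 to 11.1). BSCL2, which encodes the droplet assembly protein seipin, had 4 and 6 reads against 20 and 18, 3.35-fold higher (1.64 to 7.54), but it overlaps a readthrough transcript with HNRNPUL2 and its count is uncertain.

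**Figure D4:**
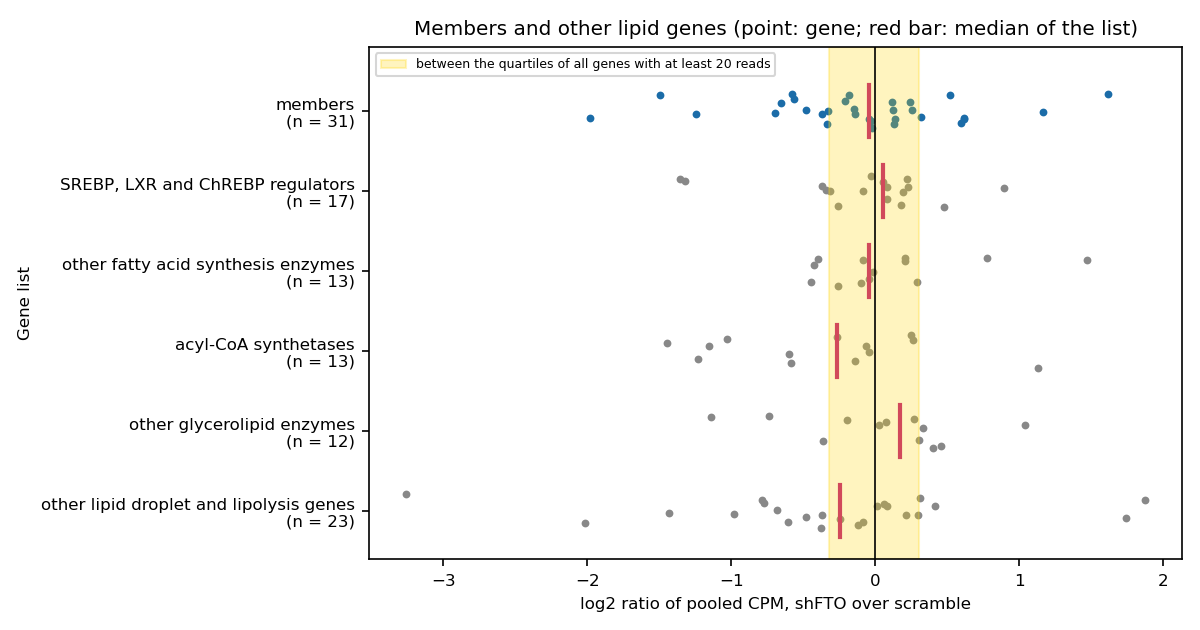
Log2 ratio of pooled CPM, shFTO over scramble, of the 31 members and of 5 lists of other lipid genes, 1 point per gene, with the list's median as a red bar and the range between the quartiles of all genes shaded. The members spread to both sides with a median of -0.04, and MTTP is the point furthest to the left.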

How the data were processed

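Each deposited table lists unnormalized counts of reads for Ensembl identifiers. HTSeq 0.6.0, TopHat2 2.1.1 and build hg19 are named in the submitters' processing notes, and the sources used here state neither the annotation release nor the strand setting nor how reads in shared exons were handled. Names, exon overlaps and principal transcript lengths came from GENCODE tables of GRCh38, another build, and 51537 identifiers had a symbol, with 0.623% of reads in those that had none. Folds are ratios of pooled TMM-scaled CPM, computed for genes with at least 20 reads over the 4 tables. edgeR 4.0.16 in R 4.3.3 (quasi-likelihood test, filterByExpr, no covariate, two-sided, adjusted p under 0.05) had 2 residual degrees of freedom. Alternatives were other scalings and filters, DESeq2 1.42.0, limma-voom (limma 3.58.1), the replicate number as a block, and each run left out.

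Named are FTO, all members, and from each of the other lists up to 4 genes each way that differed at least 2-fold, by size. INSIG1, TTR, HNF4A, CPS1, CFD, PDGFRB, COL1A1, TIE1, CD14 and the marker genes at 0 are named outside that rule. The members and lists were chosen with earlier results of these data known.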

Additional observations from a re-analysis of the deposited data

How the results depend on the processing

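The spread between separate cultures is not measured by these tables, so the depth of reads sets only the counting error. The 26 member calls of edgeR ranged from 23 with DESeq2 to 27 with upper quartile scaling, and the 10 members at least 1.5-fold different from 9 to 14 (14 with no low count filter). The members' median log2 ratio of -0.04 was 0.12 under plain library size, where the median of all genes moved to 0.18, and lay between -0.14 and -0.10 with a run left out. Of 47 named genes 35 moved beyond their counting interval under plain library size and 8 under upper quartile scaling, and none that differed at least 1.5-fold changed direction in any setting run. The replicate number as a block gave 26 member calls and 9216 over all genes (9170 without it). Deviations of same-numbered runs had a correlation of -0.0087 over 11225 genes. Runs of a group differ by no more than sampling noise, so this value cannot show whether same-numbered runs share a culture or batch. Around 1.5-fold, SREBF1 (log2 ratio 0.57) fell just under it without scramble run 1, and PNPLA2 (-0.65) and ELOVL5 (-0.61) passed it without shFTO run 2.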
